A study of Rattus norvegicus with 11 samples.

Results

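Cubn, Lrp2 and Dab2 encode cubilin, megalin and the adaptor Dab2, proteins of one route by which epithelial cells take up proteins and vitamins from the outside. They were chosen by name, as the 3 genes of this route, from 14506 genes measured on Affymetrix Rat Gene 1.0 ST arrays. Each has a single probe set in the deposited table. In the study the rat embryonic stem cell line DAc2 was converted to hypoblast stem cells, labelled cHypoSCs. The hypoblast (primitive endoderm) forms in the blastocyst and supplies the yolk sac with its endoderm.

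The 11 arrays fall into 8 groups of 2 arms. The feeder arm began from stem cells on mouse embryonic fibroblasts, in N2B27 medium with 3 µM CHIR99021, a GSK3 inhibitor, and 0.5 µM PD0325901, a MEK inhibitor. It has 1 array at each of days 0, 7, 17 and 32. The feeder-free arm began on laminin in the same base medium, with CHIR99021 at 3 µM, PD0325901 at 2 µM and the human growth factor BMP4 at 5 ng/mL. Its day 0 has 1 array, and days 7, 17 and 32 have 2 each. From day 0 both arms received a progenitor medium with LIF, EGF, PDGF and 2% serum. The labels do not say whether feeder cells were still present on later days. All arrays come from 1 line. The labels call the paired arrays biological replicates but do not say whether they came from separate cultures. The p-values therefore measure the spread between these arrays, which within a pair may be technical. Where a fit has 1 term per day for both arms, the spread also holds differences between the arms in their change over days.

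Cubilin is a large peripheral membrane protein of the apical surface. It has no membrane anchor of its own and is held there, and brought there, by the small transmembrane protein amnionless. Megalin is a giant member of the LDL receptor family that spans the membrane. Its cytoplasmic tail is bound by the phosphotyrosine-binding domain of Dab2, which links it to clathrin and the AP-2 complex. In rodents the receptors are prominent in the visceral yolk sac and the kidney proximal tubule, and both take up vitamin carriers, apolipoproteins and other proteins. Mouse embryos without either receptor, or without Dab2, are known to show defects, for cubilin and Dab2 in the visceral endoderm.

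Because the 3 genes moved together in these arrays, their annotated promoter windows are shown, from 250 bases before to 50 after the RefSeq start in the build GRCr8, in the direction of transcription. The window is that of 1 annotated start per gene. The deposited table names no build, and the arrays do not measure promoters. Capitals mark the letters GATAA, 1 form of the sites that GATA factors bind. GATA followed by another base was not searched for or marked. ACAAT, a core of SOX factor sites, was also searched on both strands. The motifs were chosen with the array results known.
Cubn, chr17:81501645-81501944, minus strand: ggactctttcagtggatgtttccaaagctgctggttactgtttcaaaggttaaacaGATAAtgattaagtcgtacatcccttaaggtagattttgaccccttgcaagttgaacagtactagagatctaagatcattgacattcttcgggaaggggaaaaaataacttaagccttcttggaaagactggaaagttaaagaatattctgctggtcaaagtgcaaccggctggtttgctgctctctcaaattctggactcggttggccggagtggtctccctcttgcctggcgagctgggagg
Lrp2, chr3:74754486-74754785, minus strand: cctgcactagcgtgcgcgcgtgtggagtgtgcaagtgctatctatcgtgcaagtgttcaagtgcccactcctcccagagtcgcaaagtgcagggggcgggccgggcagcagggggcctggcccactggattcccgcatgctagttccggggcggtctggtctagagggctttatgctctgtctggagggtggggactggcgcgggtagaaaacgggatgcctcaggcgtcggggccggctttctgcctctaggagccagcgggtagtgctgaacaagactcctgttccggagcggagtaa
Dab2, chr2:57272050-57272349, plus strand: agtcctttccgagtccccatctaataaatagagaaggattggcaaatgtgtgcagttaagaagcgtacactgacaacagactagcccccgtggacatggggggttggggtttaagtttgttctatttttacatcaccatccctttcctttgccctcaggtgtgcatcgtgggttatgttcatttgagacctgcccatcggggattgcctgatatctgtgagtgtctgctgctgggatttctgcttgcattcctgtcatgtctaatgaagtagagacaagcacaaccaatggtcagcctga
The Cubn window holds GATAA once, in the direction of transcription, at position -194 from the start. GATAA is on neither strand of the Lrp2 and Dab2 windows, and ACAAT is in none of the 3. The Lrp2 and Dab2 windows do hold GATA followed by another base, on 1 strand or the other. The absence of GATAA therefore does not show that they lack GATA factor sites. Among all 33469 windows of this length 26.5% hold GATAA and 33.7% hold ACAAT, so a single match is common. The windows differ in composition. That of Lrp2 is 63.3% G and C with 20 CG pairs, whereas those of Cubn and Dab2 are 44.7% and 47.3% with 6 and 5 pairs, beside a median over all windows of 51.7% and 7.

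The values are log2 expression from RMA, and all 11 arrays share a median of 8.97. As a measure of background, 95% of the values of 1239 odorant and pheromone receptor genes, which few cells outside sensory epithelia express, lay below 8.10. From day 0 to day 32, where limma called 31% of all genes, 8 of 8 hypoblast markers rose, and of 7 pluripotency markers 5 fell and 1 rose. Of 7 parietal endoderm markers 6 rose. Of 6 trophoblast markers 1 rose and 3 fell by day 32, with 2 called in all when either day 0 array or the feeder day 32 array was left out. Their mean, though not each marker, was highest at day 7 in both arms. Of 9 visceral endoderm markers 3 rose, Amn, Foxa2 and Hnf4a. Apob and Rbp4, of the mature tissue, lay below 8.10 on every day 32 array, and the serum protein genes Ttr and Afp were at 7.63 to 8.13 and 8.47 to 8.68 on the day 32 arrays. The mean of 14 fibroblast markers was 10.39 on the feeder day 0 array and 9.42 on the feeder day 7 array, and between 8.33 and 8.72 on the other 9. The feeder cells were of mouse, whereas the arrays carry rat probes. How evenly the probe sets of different genes read mouse RNA was not tested. In such bulk samples fewer cells of a type and less RNA per cell cannot be told apart.

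Cubn was low in stem cells of both cultures and high in the converted cells. In the feeder arm its log2 level was 8.16 at day 0, 12.11 at day 7, 14.51 at day 17 and 14.81 at day 32. In the feeder-free arm it was 8.82 at day 0, 13.31 and 13.59 at day 7, 14.07 and 14.21 at day 17, and 14.53 and 14.36 at day 32. No array of day 7 or later came near the day 0 arrays, and the feeder day 0 value was barely above the background bound of 8.10.

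Lrp2, the gene of megalin, was also low at day 0, with its highest value in each arm at day 17. In the feeder arm its level was 8.90 at day 0, 10.31 at day 7, 12.16 at day 17 and 11.98 at day 32. In the feeder-free arm it was 9.43 at day 0, 11.91 and 12.05 at day 7, 12.52 and 12.71 at day 17, and 12.37 and 12.34 at day 32. At every day the feeder array lay below the feeder-free arrays, most of all at day 7.

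Dab2 differed from the receptors at the start. In the feeder arm its level was 10.38 at day 0, 12.00 at day 7, 13.94 at day 17 and 13.67 at day 32. In the feeder-free arm it was 8.76 at day 0, 13.04 and 13.18 at day 7, 13.59 and 13.65 at day 17, and 13.20 and 13.08 at day 32. The feeder array was the higher one at days 0, 17 and 32 and the lower one at day 7.

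**Figure D1:**
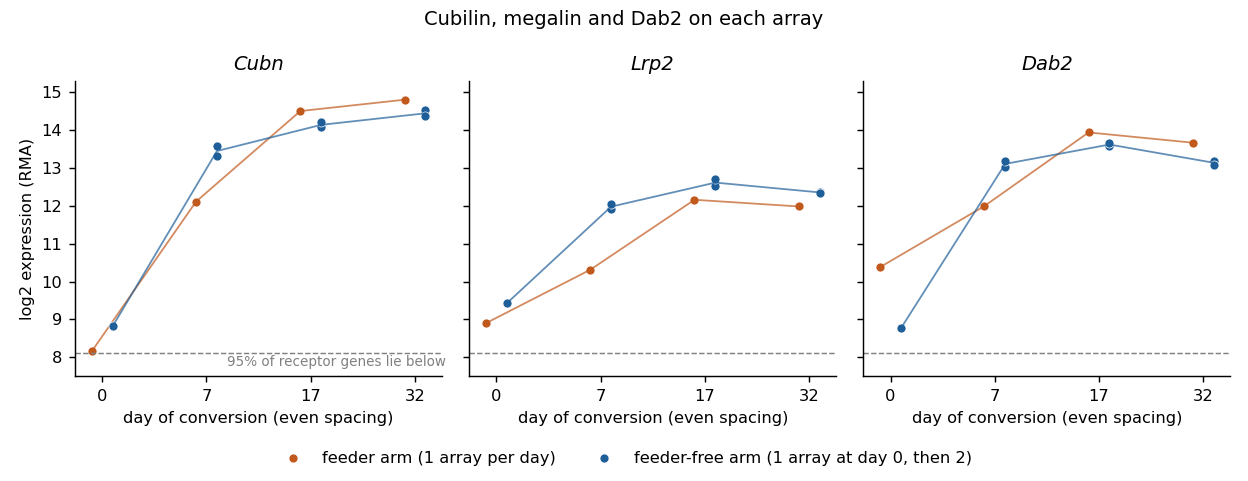
Log2 expression of Cubn, Lrp2 and Dab2 (vertical axis) on each array by day of conversion (horizontal axis, days evenly spaced), with the feeder arm at the left of each day and the feeder-free arm at the right. Points are arrays, lines join group means, and the dashed line at 8.10 bounds 95% of the receptor gene values. Every array from day 7 on lies above both day 0 arrays for all 3 genes, and the feeder day 7 array lies below the feeder-free ones.

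The levels were put in order over the 8 groups and each step set against the largest difference within a feeder-free pair, 0.28 for Cubn, 0.19 for Lrp2 and 0.15 for Dab2. For Cubn the order was feeder day 0, feeder-free day 0, feeder day 7, feeder-free days 7, 17 and 32, feeder day 17 and feeder day 32. Feeder day 17 and feeder-free day 32 were not separated by more than the pair difference, at 14.51 against 14.45. For Lrp2 the highest group was feeder-free day 17 at 12.62 ± 0.14 (SD, n = 2). Its feeder day 32 array, at 11.98, was not separated from the feeder-free day 7 group, also at 11.98, nor was feeder day 32 from feeder day 17. For Dab2 the highest group was feeder day 17 at 13.94, and the lowest was feeder-free day 0, not feeder day 0. Its feeder-free days 32 and 7, at 13.14 ± 0.08 and 13.11 ± 0.10 (SD, n = 2 each), were not separated, nor were feeder day 32 and feeder-free day 17.

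The first comparison asked what the first week of conversion changed. All 3 genes rose from day 0 to day 7 in the limma fit with terms for day and arm, with Benjamini-Hochberg adjustment over all genes and a threshold of 0.05. In that comparison 16% of all genes were called, in either direction. Cubn was 4.47 ± 0.38 higher at day 7 on the log2 scale (SE, adjusted p = 0.000355), a 22.1-fold difference. Lrp2 was 2.13 ± 0.28 higher (adjusted p = 0.00286) and Dab2 3.21 ± 0.47 higher (adjusted p = 0.00455). Ranked by the size of the rise over 14506 genes, Cubn was at place 9, Dab2 at 36 and Lrp2 at 152.

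Markers of the trophoblast, the outer layer that forms the placenta, moved with this step. Their mean over 6 genes was 9.85 at day 0, 10.66 at day 7, 9.24 at day 17 and 9.28 at day 32 in the feeder arm. In the feeder-free arm it was 9.94 at day 0, 12.03 and 12.17 at day 7, 9.20 and 9.15 at day 17, and 9.29 and 9.35 at day 32. The day 7 arrays were thus the highest in both arms, and more so in the feeder-free arm. From day 0 to day 7 Elf5, Gata3, Hand1 and Plac1 rose, by 2.78 to 3.52, and Cdx2 fell, so 5 of 6 were called beside 16% of all genes. The count called was 3 when the feeder-free day 0 array or either feeder-free day 7 array was left out. At days 17 and 32 the trophoblast mean was below its day 0 value in both arms. The part of the trophoblast markers in the day 7 values of Cubn, Lrp2 and Dab2 was not tested.

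The rise by day 7 was not the same in the arms. Dab2 was 1.61 higher at day 7 than at day 0 in the feeder arm and 4.35 higher in the feeder-free arm, a difference of -2.73 ± 0.19 between the arms (SE, adjusted p = 2.94e-07 in a limma fit with a mean for each of the 8 groups). Lrp2 was 1.41 higher in the feeder arm and 2.55 higher in the feeder-free arm, which differ by -1.14 ± 0.20 (adjusted p = 0.000778). Cubn was 3.96 and 4.63 higher, which differ by -0.68 ± 0.22 (adjusted p = 0.0435). All 3 are thus called as a smaller rise in the feeder arm, where 22% of all genes were called in either direction. The Cubn difference was not called without the second feeder-free day 7 array (-0.54, adjusted p = 0.0956), with all rows of the table tested (adjusted p = 0.129) or with arrays centred on the median of the genes (-0.59, adjusted p = 0.0649). The single feeder arrays, and the single feeder-free array of day 0, are assumed in this fit to vary like the feeder-free pairs.

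The arms already differed in Dab2 at the start. At day 0 the difference, feeder minus feeder-free, was 1.62 for Dab2, whereas it was -0.66 for Cubn and -0.53 for Lrp2. The fibroblast markers were also higher in the feeder arm at day 0, with a mean of 10.39 against 8.33 in the feeder-free arm. The widest gap was that of Vim, vimentin, at 14.57 against 8.69, but Vim is not particular to fibroblasts and was at 14.49 and 14.44 on the feeder-free day 32 arrays. Without Vim the mean of the other 13 was 10.07 in the feeder arm against 8.30 in the feeder-free arm, with Postn, periostin, at 11.79 against 6.80 and the collagen gene Col1a1 at 13.13 against 9.96. At day 7 the marker mean was 9.42 in the feeder arm against 8.64 and 8.59 in the feeder-free arm. The Dab2 difference, feeder minus feeder-free, was then -1.11, opposite in sign. It was 0.32 at day 17 and 0.53 at day 32. The marker mean on those days was 8.72 and 8.70 in the feeder arm and 8.68 to 8.71 in the feeder-free arm. The part of the fibroblast markers in the Dab2 value was not tested. The joint rise of Dab2 to day 7 was 4.003 (adjusted p = 0.00133) when the feeder array of day 0 was left out and 2.30 (adjusted p = 0.0373) when the feeder-free one was.

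**Figure D2:**
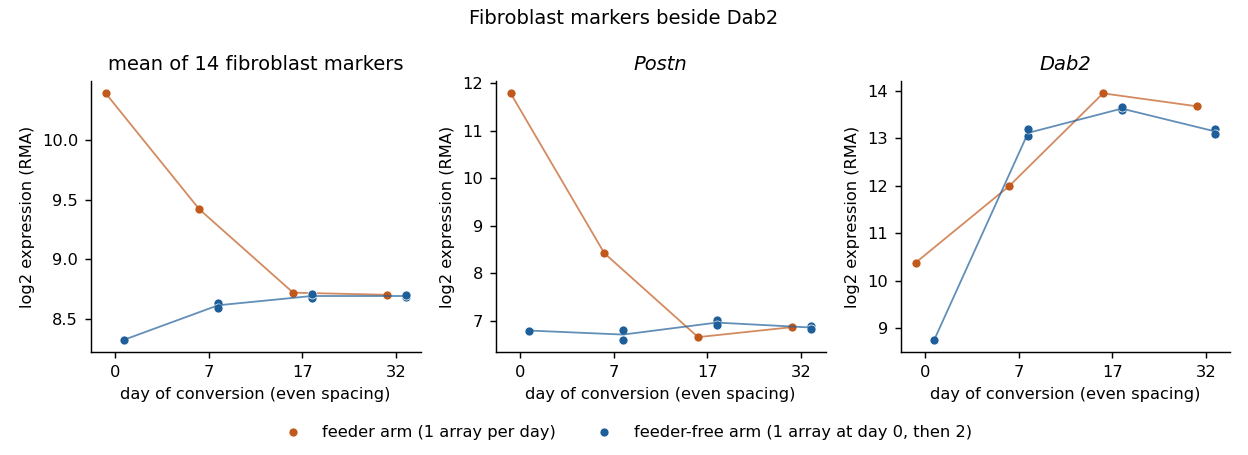
Log2 expression (vertical axes) by day (horizontal axis, evenly spaced) for the mean of 14 fibroblast markers, for Postn and for Dab2, with the feeder arm at the left of each day and the feeder-free arm at the right, points as arrays and lines through group means. The feeder day 0 and day 7 arrays stand above the others for the markers, at 10.39 and 9.42 for their mean, and Dab2 at day 0 is 10.38 in the feeder arm and 8.76 in the feeder-free arm.

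The feeder day 7 array held a stem cell factor near its day 0 level, with the uptake genes between their day 0 and day 32 levels. Nanog, a factor that holds cells in the pluripotent state, was at 13.29 on it, beside 13.35 on the feeder day 0 array and 10.14 and 10.26 on the feeder-free day 7 arrays. On the same feeder day 7 array Cubn was at 12.11, or 59.5% of the way on the log2 scale from its day 0 to its day 32 level in that arm. Dab2 was at 49.1% and Lrp2 at 45.7%. The endoderm regulators Gata4, Gata6 and Sox17 were at 49.2%, 39.5% and 35.4%, and the receptor partners Amn and Lrpap1 at 16.7% and 21.3%. In the feeder-free arm these shares were 82.3% for Cubn, 99.3% for Dab2 and 87.1% for Lrp2, and 93.8%, 86.9% and 86.6% for the regulators. Amn and Lrpap1 stood lower, at 51.2% and 67.7%. The order of these shares was not tested.

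**Figure D3:**
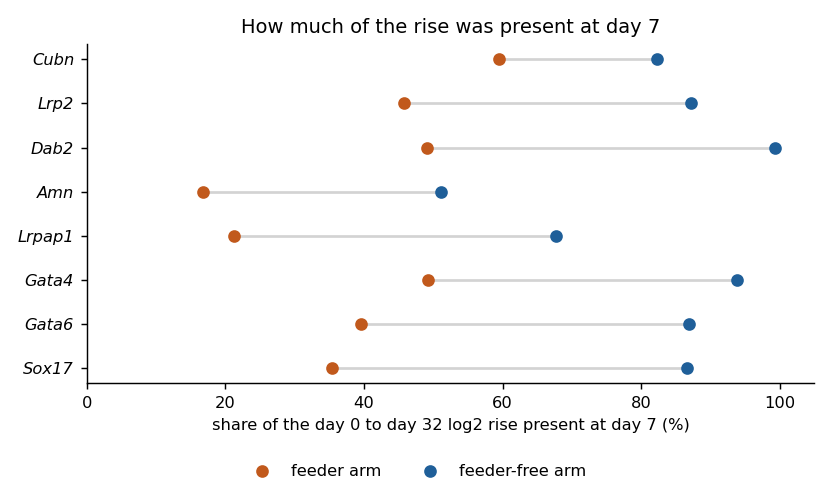
Share of the day 0 to day 32 log2 rise that was present at day 7 (horizontal axis, percent) for the uptake genes, their partners Amn and Lrpap1, and 3 endoderm regulators, in the feeder arm (orange) and the feeder-free arm (blue). Cubn has the largest share of the 8 genes in the feeder arm, 59.5%, and Dab2 the largest in the feeder-free arm, 99.3%; Amn has the smallest in both.

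The second interval runs from day 7 to day 17. Cubn rose by 1.26 ± 0.34 (SE, limma adjusted p = 0.0425) and Lrp2 by 1.04 ± 0.25 (adjusted p = 0.0315), while the rise of Dab2 was not called at 0.99 ± 0.42 (adjusted p = 0.15). Of all genes 12.8% were called in either direction. The receptor calls are near the threshold. Leaving out a single array ended the call of Cubn in 6 cases, with adjusted p between 0.0607 and 0.165, and that of Lrp2 in the same 6, with adjusted p between 0.052 and 0.128. These arrays were the first feeder-free one of day 7, both feeder-free ones of days 17 and 32, and the feeder one of day 17. Without the feeder day 7 array the rises were 0.79 for Cubn and 0.63 for Lrp2, and both passed, while that of Dab2 was 0.37 and did not pass. Dab2 passed with a mean for each group (1.23, adjusted p = 8.95e-08) and with the feeder-free arrays alone (0.51, adjusted p = 0.00265).

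In this interval the feeder arm gained more than the feeder-free arm. Cubn was 2.39 higher at day 17 than at day 7 in the feeder arm and 0.69 higher in the feeder-free arm, a difference of 1.70 ± 0.21 (SE, limma adjusted p = 3.89e-05). Lrp2 was 1.85 and 0.64 higher, which differ by 1.21 ± 0.19 (adjusted p = 0.000294). Dab2 was 1.95 and 0.51 higher, which differ by 1.44 ± 0.18 (adjusted p = 5.30e-05). All 3 differences were called, beside 19.7% of all genes in either direction. This contrast shares the day 7 arrays with the one for the first week, so the opposite signs of the contrasts are not separate observations.

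From day 17 to day 32 none of the 3 genes passed in limma, where 0% of all genes were called over the 11 arrays and 1057 of 14506 had an unadjusted p under 0.05. Cubn differed by 0.30 ± 0.34 (SE, adjusted p = 0.976), Lrp2 by -0.23 ± 0.25 (adjusted p = 0.971) and Dab2 by -0.41 ± 0.42 (adjusted p = 0.962). With a mean for each group Dab2 was called as lower at day 32 (-0.38, adjusted p = 0.0223), and likewise with the feeder-free arrays alone (-0.48, adjusted p = 0.0106). Its day 32 values were 13.67 in the feeder arm and 13.20 and 13.08 in the feeder-free arm, against day 17 values of 13.94 in the feeder arm and 13.59 and 13.65 in the feeder-free arm.

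Over the whole course, day 32 against day 0, all 3 genes rose, beside 31% of all genes called in either direction. Cubn was 6.03 ± 0.38 higher at day 32 (SE, limma adjusted p = 3.91e-05), a 65.3-fold difference on the linear scale. Dab2 was 3.79 ± 0.47 higher (adjusted p = 0.000716), or 13.8-fold, and Lrp2 2.94 ± 0.28 higher (adjusted p = 0.000285), or 7.68-fold. The Cubn rise was the largest fitted for any of the 14506 genes. Next to it stood Sema6d at 5.92 ± 0.87 and Cmklr1 at 5.90 ± 0.58, less than 1 SE away and with a day 0 value below 8.10, so the first place is not separated from theirs. Within the arms Cubn stood at place 2 in the feeder arm and 8 in the feeder-free arm. It stood at place 7 without the feeder day 0 array and at place 2 without the feeder day 7 array, with all rows of the table, or with no term for the arm. Dab2 stood at place 46 and Lrp2 at 128 in the fit over both arms.

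The whole rise of Cubn was larger in the feeder arm, 6.65 against 5.63 in the feeder-free arm, a difference of 1.02 ± 0.22 (SE, limma adjusted p = 0.00838). That of Dab2 was smaller, 3.29 against 4.37, a difference of -1.09 ± 0.19 (adjusted p = 0.0022). For Lrp2 the rises were 3.09 and 2.93, a difference of 0.15 ± 0.20 that was not called (adjusted p = 0.75). Thus 2 of 3 genes were called, in opposite directions, beside 10.6% of all genes. The Cubn difference was not called with all rows of the table tested (adjusted p = 0.0601). For both genes the arms lay further apart at day 0 than at day 32, by 0.36 at day 32 and -0.66 at day 0 for Cubn, and by 0.53 at day 32 and 1.62 at day 0 for Dab2 (feeder minus feeder-free).

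Averaged over the days, the feeder arm had less Lrp2 than the feeder-free arm, by -0.77 ± 0.19 (SE, limma adjusted p = 0.0152). Cubn differed by -0.30 ± 0.26 (adjusted p = 0.414) and Dab2 by 0.25 ± 0.32 (adjusted p = 0.581), neither called. So 1 of 3 was called, beside 32.7% of all genes. By day the Lrp2 difference was -0.53 at day 0, -1.67 at day 7, -0.45 at day 17 and -0.37 at day 32. The averaged difference was -0.44 (adjusted p = 0.00181) with the feeder array of day 7 left out, and with the replicate number as a block it was not called (-0.72, adjusted p = 0.0568). With a mean for each group, Cubn (-0.32, adjusted p = 0.00281) and Dab2 (0.34, adjusted p = 0.000638) were called too. Without the feeder day 7 array Dab2 was called as higher in the feeder arm (0.75, adjusted p = 0.0142) and the Cubn difference was 0.08, and without either day 0 array that of Dab2 was -0.09, neither of these last called.

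**Figure D4:**
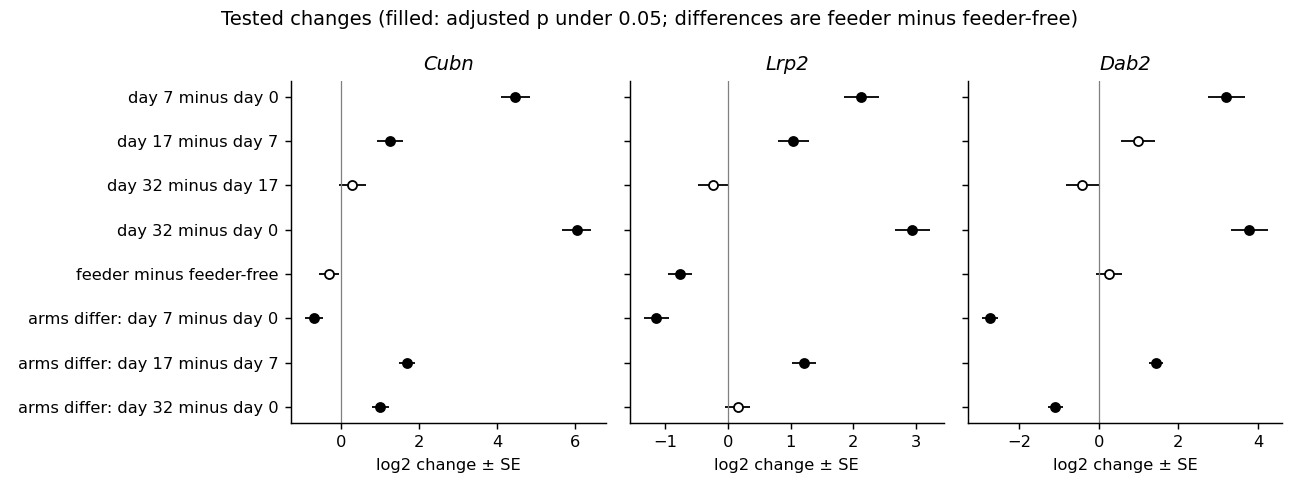
Log2 change with its standard error (horizontal axes, with a scale of their own for each gene) in the 8 tested comparisons for Cubn, Lrp2 and Dab2; filled points have an adjusted p under 0.05. The rises from day 0 to day 7 and to day 32 are filled for all 3 genes, and the rows that begin "arms differ" are feeder minus feeder-free.

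The direct partners of the receptors rose as well. Amn, which encodes amnionless, had levels of 10.24 at day 0, 10.66 at day 7, 12.50 at day 17 and 12.77 at day 32 in the feeder arm. In the feeder-free arm it was at 10.21 at day 0, 11.53 and 11.56 at day 7, 12.00 and 12.01 at day 17, and 12.84 and 12.80 at day 32. Both arms ended within 0.06 of each other on average, and Amn rose by 2.56 ± 0.26 from day 0 to day 32 (SE, limma adjusted p = 0.000352). Lrpap1 encodes RAP, a chaperone that keeps ligands off megalin and related receptors in the secretory pathway. It was at 11.44, 12.08, 14.48 and 14.48 on the feeder arrays of days 0, 7, 17 and 32 and at 12.44 on the feeder-free day 0 array. On the feeder-free arrays of later days it was at 13.91 and 14.04, 14.68 and 14.76, and 14.77 and 14.63. Lrpap1 rose by 2.55 ± 0.36 (adjusted p = 0.00113). As for the receptors, the rise by day 7 was smaller in the feeder arm, by -0.91 ± 0.18 for Amn (adjusted p = 0.00207) and -0.88 ± 0.20 for Lrpap1 (adjusted p = 0.00452).

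Of the 16 partners and chaperones measured, 6 rose and 1 fell from day 0 to day 32, or 43.8% called beside 31% of all genes, with a median change of 0.26 beside 0.05 over all genes. Anxa2, annexin A2, a membrane-binding protein, rose by 2.41 ± 0.37. Dab1, the relative of Dab2 known from reelin signalling in neurons, fell by 0.74 ± 0.19. Cblif, the gene of intrinsic factor, which carries vitamin B12 to cubilin, lay between 7.30 and 7.90 on all arrays, below the background bound.

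Other members of the LDL receptor family, listed together with Sort1, which is not of that family, did not share one direction. Of 11 genes measured, 2 rose and 5, Sort1 among them, fell from day 0 to day 32. That is 63.6% called beside 31% of all genes, with a median change of 0.10. Lrp1, a broad endocytic receptor, rose by 1.77 ± 0.50 (SE, limma adjusted p = 0.0269), with a change of 0.24 in the feeder arm and 3.03 in the feeder-free arm. Sort1, sortilin, a sorting receptor of the Golgi and endosomes, fell by 1.98 ± 0.32, while Vldlr fell by 1.07 ± 0.30 and Lrp11 fell by 0.99 ± 0.13. The change of Vldlr was -1.77 in the feeder arm and -0.45 in the feeder-free arm. At day 0 Lrp1 was at 11.07 in the feeder arm against 8.21 in the feeder-free arm, and Vldlr at 9.64 against 8.04, the second of which is below the background bound. The fibroblast markers were high on that feeder array too, and their part in either gene was not tested. The count called was 4 in each case when the feeder-free array of day 0 or the second one of day 32 was left out.

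Among 11 other endocytic receptors 2 rose and 3 fell, 45.5% called beside 31% of all genes, with a median change of -0.24. Scarb2, a membrane protein of lysosomes that also sorts glucocerebrosidase, rose by 2.06 ± 0.20 (SE, limma adjusted p = 0.00029). Igf2r, the receptor for mannose 6-phosphate and IGF2, fell by 2.99 ± 0.32, Mrc2, a collagen receptor, fell by 1.04 ± 0.27, and Tfrc, the transferrin receptor, fell by 0.97 ± 0.16. Igf2r at day 32 was at 9.37 in the feeder arm and 9.58 and 9.47 in the feeder-free arm, against day 0 levels of 12.37 in the feeder arm and 12.64 in the feeder-free arm. The day 32 arrays lay below the day 0 array in both arms. The difference of Mrc2, day 32 minus day 0, was -1.83 in the feeder arm and -0.47 in the feeder-free arm, and at day 0 was at 10.32 in the feeder arm against 9.07 in the feeder-free arm. The part of the fibroblast markers, high on the feeder day 0 array, was not tested. The count called was 3 without the feeder arrays of day 0 or day 32, and 8 without that of day 7.

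The general machinery of clathrin uptake was called about as often as all genes. Of 20 genes of the clathrin coat and its adaptors 4 rose and 2 fell, 30% called beside 31% of all genes, with a median change of 0.03. Ap2m1, the AP-2 subunit that reads tyrosine signals in receptor tails, rose by 0.61 ± 0.09 (SE, limma adjusted p = 0.00152) and Itsn1, a scaffold of coated pits, by 0.98 ± 0.20. Amph, amphiphysin, fell by 2.09 ± 0.13, and Fcho1, an early pit protein, fell by 0.69 ± 0.17. Of 26 genes of endosome sorting and recycling 8 rose and 5 fell, 50% called beside 31% of all genes, with a median change of 0.16. Rab4a and the Rab11 effector Rab11fip1, both of recycling, rose by 1.29 ± 0.17 and 1.29 ± 0.13, Appl2, of early endosomes, by 1.17 ± 0.12, and Snx1, of the retromer, by 0.96 ± 0.15. The count of the endosome list was 7 without the feeder-free day 0 array.

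Among 21 measured ligands of the receptors 3 rose and 2 fell, 23.8% called beside 31% of all genes, with a median change of 0.04. Cst3, cystatin C, a protease inhibitor, rose by 2.73 ± 0.35 (SE, limma adjusted p = 0.000782) and Clu, clusterin, a secreted chaperone, by 2.09 ± 0.33. Mt1, a metallothionein, fell by 3.03 ± 0.49, and Bmp4, a signalling ligand, fell by 2.81 ± 0.55. Cst3 at day 0 was at 12.30 in the feeder arm against 9.83 in the feeder-free arm. The fibroblast markers were high on that feeder array as well, and their part in the value was not tested.

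**Figure D5:**
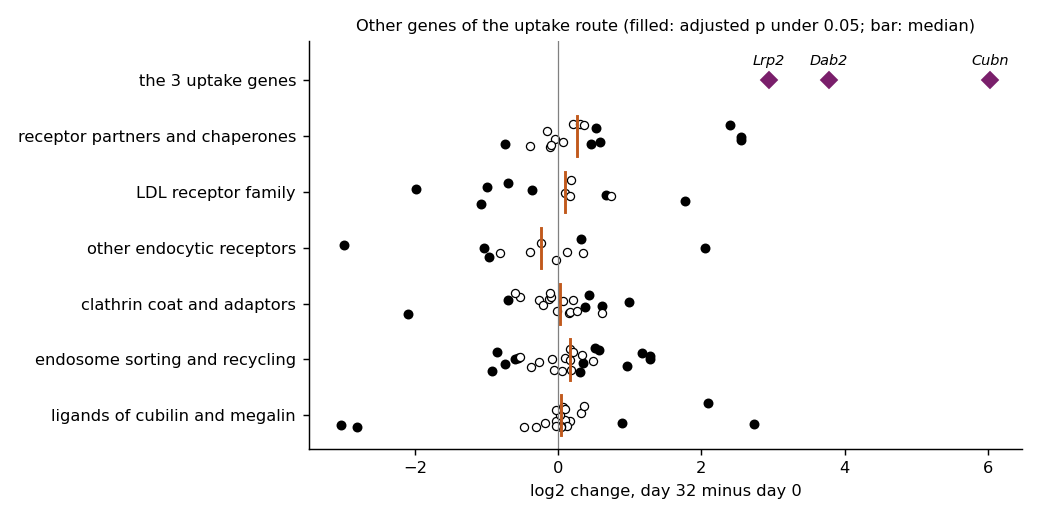
Log2 change from day 0 to day 32 (horizontal axis) for the 3 uptake genes (diamonds) and for each measured gene of 6 groups of the uptake route; filled points have an adjusted p under 0.05 and orange bars are group medians. Amn, Lrpap1 and Anxa2 are the 3 points near 2.5 among the partners, while the group medians lie between -0.24 and 0.26.

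Genes with a pattern most like each member were taken as the 5 with the highest Pearson correlation over the 11 arrays among 5564 genes with a range of at least 1. For Cubn these were Lad1 (r = 0.992), Sipa1l3 (r = 0.991), Klhl22 (r = 0.987), Phlda2 (r = 0.986) and Cmklr1 (r = 0.984). For Lrp2 they were Gata6 (r = 0.994), Susd2 (r = 0.992), Sh3tc1 (r = 0.992), Acaa2 (r = 0.991) and Gulo (r = 0.991). For Dab2 they were Tnfrsf1a (r = 0.995), Wdr1 (r = 0.989), Plcd1 (r = 0.989), Bmp2k (r = 0.987) and Icos (r = 0.985). The 3 lists share no gene, but each holds only 5 of 5564, so this does not set the patterns apart. Gata6, for one, also had r = 0.972 with Cubn and 0.917 with Dab2. Among the members r was 0.959 for Cubn and Lrp2, 0.945 for Cubn and Dab2, and 0.912 for Lrp2 and Dab2. These figures describe 11 arrays of which the 2 of day 0 stand far from the rest, so they mostly reflect that step, and neither arrays of one arm nor genes are independent points.

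The gene nearest to Lrp2, Gata6, encodes a transcription factor of the primitive endoderm. It was at 9.11, 11.25, 14.47 and 14.51 on the feeder arrays of days 0, 7, 17 and 32. On the feeder-free arrays it was at 9.96 at day 0, 13.99 and 14.16 at day 7, 14.66 and 14.70 at day 17, and 14.74 and 14.65 at day 32. Like Lrp2 it was lower in the feeder arm than in the feeder-free arm at days 0, 7, 17 and 32, with differences of -0.85, -2.83, -0.21 and -0.18. Tnfrsf1a, nearest to Dab2 and the gene of a TNF receptor, was at 10.86 at day 0 in the feeder arm against 10.24 in the feeder-free arm, and at 11.76 at day 7 in the feeder arm against 12.24 and 12.44 in the feeder-free arm. It thus had the same order of the arms as Dab2 at both days. Gata6 and Tnfrsf1a were picked by correlation over these same arrays, so their likeness in the arms is not a separate observation.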

How the data were processed

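The deposited values are log2 expression per probe set, made by the authors with RMA per the submitters' processing notes; its version, options and build are not given in the sources used here. There are 11 RNA samples with 1 array each, and the number of arrays limits the precision. The probe annotation named 1 gene on 15310 of 29214 rows, several on 323 and none on 13581; only rows with 1 gene were used, and the row with the highest mean stood for each of 527 genes with several rows, leaving 14506 genes. Of the rows with 1 gene 15279 matched RefSeq by gene ID. No replicate pair held identical values (replicate r 0.9966 to 0.9977).

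Tests used limma 3.58.1 (lmFit and eBayes) in R 4.3.3, with Benjamini-Hochberg adjustment over all genes and a threshold of 0.05. Day comparisons and feeder minus feeder-free came from a fit with terms for day and arm (6 residual degrees of freedom). Its residual spread holds the feeder-free pair differences and also differences between the arms in their change over days. Differences between arms came from a fit with a mean for each of 8 groups (3 residual degrees of freedom, all from feeder-free pairs). The fits were run on simulated data with known changes and noise of the size of the feeder-free pair differences. The simulated day changes were equal in both arms. The fit with terms for day and arm was thus not tried on arms that change differently. A check of the replicate numbers showed no pairing of the feeder-free arrays across days, but cannot exclude it. The 22 alternatives were 11 arrays left out in turn and 11 other settings. Figures used matplotlib 3.10.9.

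The 3 genes, the gene and marker lists, the motifs and the tests were chosen with earlier results of these data known, and the receptor genes used as background after the values were seen. Named were the 3 genes, the partners Amn and Lrpap1, and from each list up to 4 called genes with the largest change from day 0 to day 32 and up to 2 with the largest called difference between arms by day 7. Nanog, Gata4, Gata6 and Sox17, and single markers of other cell types were named beside the results they touch. The fibroblast mean without Vim and the marker counts under the alternatives were added after the data were seen.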

Additional observations from a re-analysis of the deposited data

Results flagged for a closer look

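The results here were picked out because the change with time differed between the feeder and feeder-free arms in limma (adjusted p under 0.05, Benjamini-Hochberg over all genes). Each value is the change in the feeder arm minus that in the feeder-free arm, on the log2 scale. The feeder arm has 1 array per day, and the feeder-free arm has 1 at day 0. For day 7 against day 0 the differences were -0.68 for Cubn, -1.14 for Lrp2 and -2.73 for Dab2. For day 17 against day 7 they were 1.70 for Cubn, 1.21 for Lrp2 and 1.44 for Dab2. For day 32 against day 0 they were 1.02 for Cubn and -1.09 for Dab2.

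Other genes of the uptake route also differed in the change by day 7, where 22% of all genes were called in either direction. By list the share called was 20% of clathrin genes, 28.6% of ligands, 30.8% of endosome genes and 31.2% of partners. It was 36.4% of the other endocytic receptors and 45.5% of the LDL receptor family list. The change was lower in the feeder arm than in the feeder-free arm for Amn (-0.91), Lrpap1 (-0.88), the membrane-binding annexin gene Anxa2 (-2.04) and Lrp1 (-2.42). It was also lower for Plau, the gene of urokinase (-3.01), and Cst3 (-1.91), whose products are ligands. Of 21 ligands 3 were called lower and 3 higher, among the latter Mt1 (1.51) and Bmp4 (1.04). Of 20 clathrin genes 2 were called lower and 2 higher, among the latter Fcho1 (0.75). A lower change in the feeder arm was found for Bin1, an amphiphysin relative (-1.29), Dnm1, a dynamin (-0.94), and Inpp5b, a phosphoinositide phosphatase (-1.11). The opposite direction was found for Sort1 (1.56), Igf2r (1.58), Cd320, the receptor for transcobalamin (1.06), Dab1 (0.93) and Rab38, a small GTPase of lysosome-related organelles (1.38). The fibroblast marker mean was 10.39 at day 0 in the feeder arm against 8.33 in the feeder-free arm, and its part in these differences was not tested.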

How the results depend on the processing

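The rises of Cubn, Lrp2 and Dab2 from day 0 to day 7 and from day 0 to day 32 kept their direction and their call under all 22 alternatives, and over all comparisons 436 of 471 recomputed values of the 3 genes did so. Of 360 recomputed list counts 302 stayed within 1.5 times. The cause was not tested for the changes that follow. The call from day 7 to day 17 was lost for Cubn with all rows tested (1.26, adjusted p = 0.0567), further quantile normalization (1.10, adjusted p = 0.0828), the replicate block (1.26, adjusted p = 0.0726) and no culture term (1.26, adjusted p = 0.105). For Lrp2 it was lost with quantile normalization (0.89, adjusted p = 0.0566), the replicate block (1.04, adjusted p = 0.0558) and no culture term (1.04, adjusted p = 0.226). Leaving out 1 array gave 0.79 to 1.52 for Cubn and 0.63 to 1.24 for Lrp2. Dab2 gained a call from day 7 to day 17 (1.23 in the 8-group fit, 0.51 in the feeder-free arrays alone) and from day 17 to day 32 (-0.38 and -0.48). For feeder minus feeder-free, Cubn turned with array weights (0.15), ranged from -0.54 to 0.083 with 1 array left out and was called in the 8-group fit (-0.32). Dab2 was called there too (0.34) and ranged from -0.088 to 0.75, and Lrp2 was not called with the replicate block (-0.72, adjusted p = 0.0568). For the difference between arms Cubn was not called by day 7 with all rows (-0.68) or median centring (-0.59), ranging from -0.82 to -0.54 with 1 array left out, nor by day 32 with all rows (1.02). These differences could not be fitted without a group's only array. The pairing check took the difference within each feeder-free pair over all genes and correlated it between days. It gave 0.034 for days 7 and 17, -0.195 for days 7 and 32 and -0.099 for days 17 and 32. No pairing by number was seen, but such a check cannot exclude it. The block moved 2322 genes called at day 7 to 1325 and 1850 from day 7 to day 17 to 984, and changed no call of the 3 genes other than those above. Genes called from day 0 to day 7 numbered 4887 in the 8-group fit, 5348 in the feeder-free arrays alone, 805 with no culture term and 684 to 4448 with 1 array left out. From day 7 to day 17 they numbered 5347, 3458, 266 and 364 to 2344, and 2852 with array weights. From day 17 to day 32 they were 934 in the 8-group fit, 1062 in the feeder-free arrays alone, 792 with array weights and 0 to 232 with 1 array left out. From day 0 to day 32 they were 2573 with no culture term and 2536 to 5528 with 1 left out, and for feeder minus feeder-free 9904 of 29214 with all rows (33.9%, against 32.7% of genes) and 7699 in the 8-group fit.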
